A study of Arabidopsis thaliana with 8 samples.

Results

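PDF1.2 (AT5G44420) and THI2.1 (AT1G72260) were followed over all samples as 2 genes for antimicrobial peptides of Arabidopsis thaliana. Each was found by its locus in the array annotation, and each had 1 probe set that matched that gene alone, so 2 of the 22746 tested probe sets are described, for 2 of the 13350 genes named by a probe set of their own. No other probe set was annotated to either gene together with further genes. The study compared leaves of 2 genotypes, the SALK insertion line dTLec1-1 (dTLec below) and the wild type, ecotype Col-0, all of them 5 weeks old and grown at 21 °C in short days of 10 h of light and 14 h of darkness, after 2 days of cold (4 °C) in the dark at the seed stage. Wounds were made with tweezers pressed over the midvein of part of the rosette leaves, and RNA was extracted after 2 h. The 4 groups were dTLec systemic leaves, dTLec control leaves, wild-type systemic leaves and wild-type control leaves, with 2 Affymetrix ATH1 arrays each. Systemic leaves are, by the usual meaning of the word, the unwounded leaves of a wounded plant. The insertion is represented by 1 line, and its target gene is not given. The labels do not say whether control leaves came from separate plants or whether replicates were separate plants or pools. P-values therefore reflect the scatter of these samples only, which could be technical.

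Plant defensins and thionins are small, secreted or vacuolar, cysteine-rich peptides that act on the membranes of microbes. PDF1.2 encodes a defensin and is the standard marker of the branch of jasmonate signalling that needs ethylene as well, in which ERF1 and ORA59 activate the gene. THI2.1 encodes a thionin that jasmonate also induces and that is best known from flowers, siliques and seedlings. Wounding raises jasmonate within minutes, also in distant leaves, and MYC2-type factors, which drive most wound genes, are known to hold back PDF1.2.

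All values are log2 expression levels as the authors deposited them, and each difference is one of log2 levels, so that 1 unit is a doubling. Array medians lay between 5.82 and 5.86, and single values between 3.24 and 14.28. The leaf markers measured by name, LHCB4.2 and RCA (2 of 6 listed), lay between 13.57 and 13.88 on every array. PYK10, a root-type glucosidase gene and the 1 root marker listed, lay between 4.22 and 4.33. None of the 4 flower and 2 seed markers was measured by name. The arrays carry no read depth, and their number limits the precision.

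PDF1.2 did not differ detectably between the groups in any comparison, and its replicates lay far apart in systemic leaves of both genotypes. Its level was 5.21 and 6.48 in dTLec systemic leaves and 6.10 and 5.82 in dTLec control leaves. In the wild type it was 6.22 and 5.09 in systemic leaves and 5.18 and 5.33 in control leaves. Systemic and control arrays did not overlap at 47.1% of all probe sets in dTLec and at 51.9% in the wild type, but for PDF1.2 they did: in each genotype 1 systemic array was higher than both control arrays and the other was lower than both.

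**Figure D1:**
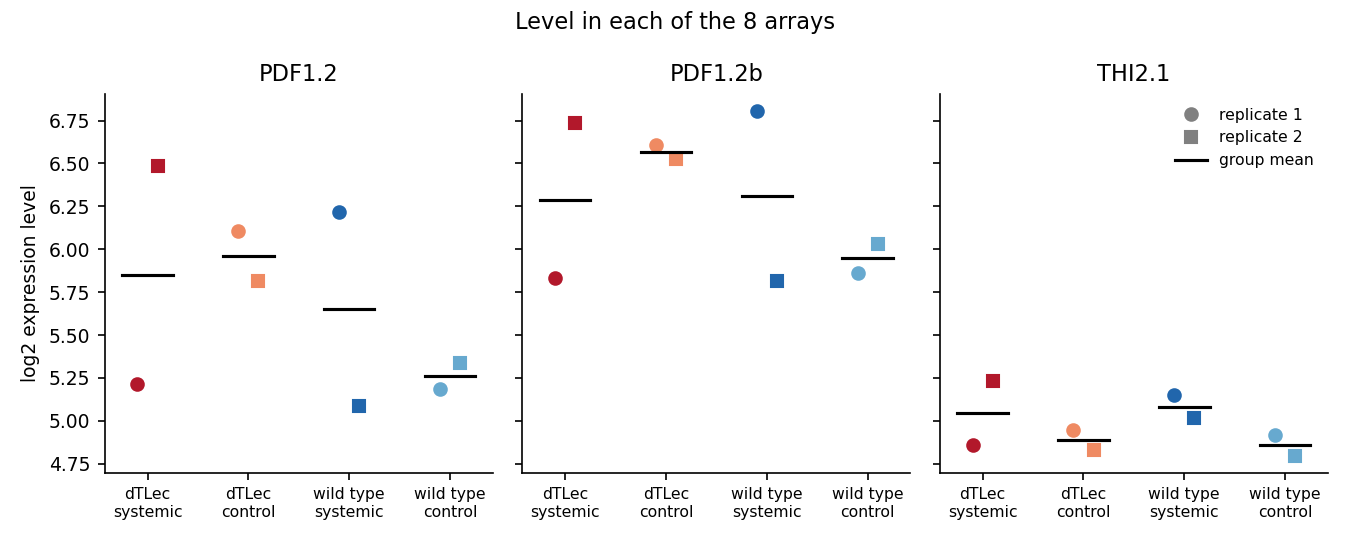
Log2 expression level (vertical axis) of PDF1.2, its near relative PDF1.2b and THI2.1 in the 4 groups, with circles for replicate 1, squares for replicate 2 and a bar for the group mean. In systemic leaves 1 array of each genotype is high for PDF1.2 (6.48 in dTLec, 6.22 in the wild type) and the other is low (5.21 and 5.09), and PDF1.2b shows the same split.

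Ordered by their means, the PDF1.2 levels were 5.96 ± 0.20 in dTLec control leaves, 5.85 ± 0.90 in dTLec systemic leaves, 5.65 ± 0.80 in wild-type systemic leaves and 5.26 ± 0.11 in wild-type control leaves (SD, n = 2 arrays each). None of the neighbours in this order differed beyond their spread. The lowest and the highest of the 4 groups, both control leaves, were the pair whose arrays did not overlap.

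For the question whether wounding changed PDF1.2 in distant leaves, the systemic minus control difference was −0.11 ± 0.46 in dTLec and 0.39 ± 0.46 in the wild type (SE, n = 2 arrays per group). The adjusted p was 0.929 in dTLec and 0.687 in the wild type in limma's moderated test over all probe sets. By that test 0.668% of all probe sets passed in dTLec and 11.9% in the wild type, and PDF1.2 passed in neither. With the replicate number as a block these shares were 0.0703% and 7.02%, and 8.19% for the mean systemic effect below, without a call for PDF1.2 or THI2.1. The 95% interval ran from −1.20 to 0.98 in dTLec and from −0.70 to 1.48 in the wild type, so a change of up to 1.97-fold upwards in dTLec and 2.80-fold in the wild type could not be told from none. The mean systemic effect over both genotypes was 0.14 ± 0.33 (limma adjusted p 0.84), in a comparison in which 14.1% of probe sets passed. The direct comparison of the responses gave −0.50 ± 0.65 (dTLec minus wild type, limma adjusted p 0.824, with 0.0044% of probe sets called), with an interval from −2.05 to 1.04.

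The sign of the PDF1.2 response rested on single arrays. In dTLec it was −0.75 when systemic replicate 2 was left out and 0.52 when systemic replicate 1 was. In the wild type it was −0.17 when systemic replicate 1 was left out and 0.96 when systemic replicate 2 was. The labels do not say what the wounded plants of the replicates shared, and the source of the split was not tested.

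Such a wide split in both systemic groups was rare on these arrays. The 2 PDF1.2 values of dTLec systemic leaves were 1.27 apart, and 0.0923% of all probe sets had a larger gap there. Those of wild-type systemic leaves were 1.13 apart, with a larger gap at 0.0659% of probe sets. In control leaves the gap was 0.29 in dTLec and 0.15 in the wild type, and 10.2% and 41.4% of probe sets had larger ones. Only 5 probe sets differed by more than 1 between the replicates of both systemic groups, of which PDF1.2 and AT4G29020 match 1 gene. This limit lies close below the gaps of PDF1.2 itself. Its near relative PDF1.2b, with gaps of 0.90 in dTLec and 0.99 in the wild type, fell just under the limit. AT4G29020 is named because the count was small, after its values were seen. The high array for PDF1.2 was replicate 2 in dTLec and replicate 1 in the wild type. In dTLec alone the split was not particular to PDF1.2. Of the jasmonate genes JOX1 to JOX4 described below, JOX2, JOX3 and JOX4 had gaps of 1.12, 0.97 and 1.08 in dTLec systemic leaves, and JOX1 had 0.17. Replicate 2 was the higher array for each of them there. In wild-type systemic leaves the gaps were 0.24 for JOX2, 0.33 for JOX3, 0.16 for JOX4 and 0.25 for JOX1. The deposited values have equal means for replicate 1 and replicate 2 over the 4 groups at every probe set, so the replicate differences of the 4 groups add up to 0 and a gap in one group is offset in the others. How far apart the PDF1.2 replicates were before that step cannot be read from these values.

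For the question whether the genotype alone changed PDF1.2, both dTLec arrays (6.10 and 5.82) lay above both wild-type arrays (5.18 and 5.33) in control leaves. Groups did not overlap at 37.9% of all probe sets in this comparison. The difference of 0.70 ± 0.46 (SE, n = 2 arrays per group), or 1.63-fold, was exceeded at 0.466% of probe sets. The scatter of PDF1.2 was large as well, with a smaller SD around the group means at 99.7% of probe sets. By its unadjusted p in limma the difference ranked 5697 of 22746. It did not pass in limma (adjusted p 0.691, unadjusted 0.173, interval −0.39 to 1.79), nor did any other probe set in control leaves, where 0% passed. The test takes its spread from all 8 arrays, and for PDF1.2 the systemic replicates gave 96.5% of it (as a sum of squares). With the 4 control arrays alone, a fit chosen after the values were seen, the SE was 0.13, the unadjusted p 0.00255 and the adjusted p 0.605. The replicate means had been made equal over the 4 groups, so the control gaps also depend on the systemic arrays left out. This unadjusted p therefore cannot stand as evidence of a difference. In systemic leaves the PDF1.2 values of the genotypes overlapped, where those of 54.7% of all probe sets did not, and the difference was 0.20 ± 0.46 (limma adjusted p 0.84, with 5.53% of probe sets called). The mean genotype effect over both leaf types was 0.45 ± 0.33 (limma adjusted p 0.468, with 3.89% called).

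THI2.1 varied less than PDF1.2. It had 4.86 and 5.23 in dTLec systemic leaves and 4.95 and 4.83 in dTLec control leaves. In the wild type it had 5.15 and 5.02 in systemic leaves, against 4.92 and 4.80 in control leaves. The wild-type systemic arrays were both above the control arrays, in a comparison where 51.9% of all probe sets did not overlap, and in dTLec 1 systemic array was above both control arrays and the other lay between them. All 8 THI2.1 values were below the array medians, as were some of PDF1.2. Differences may be compressed in that part of the scale, which was not tested.

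By their means the THI2.1 levels were 5.08 ± 0.09 in wild-type systemic leaves, 5.05 ± 0.26 in dTLec systemic leaves, 4.89 ± 0.08 in dTLec control leaves and 4.86 ± 0.08 in wild-type control leaves (SD, n = 2 arrays each). The neighbours in this order did not differ beyond their spread. The systemic minus control difference was 0.16 ± 0.13 in dTLec and 0.23 ± 0.13 in the wild type (SE, n = 2 arrays per group), with limma adjusted p of 0.6 and 0.35. The intervals ended at 1.38-fold in dTLec and 1.45-fold in the wild type, and at 1.42-fold and 1.49-fold with the replicate number as a block. Over both genotypes the difference was 0.19 ± 0.09, with an unadjusted p of 0.0756 and an adjusted p of 0.231 in limma. It stayed positive with each array left out in turn, between 0.10 and 0.28.

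No THI2.1 difference between the genotypes was detected. It was −0.04 ± 0.13 in systemic leaves and 0.03 ± 0.13 in control leaves (dTLec minus wild type, SE, n = 2 arrays per group), with limma adjusted p of 0.9 and 0.961. The mean over both leaf types was −0.002 ± 0.09 on the deposited scale and 0.002 with each array centred on its median, which is a change of sign around 0. Its interval, −0.22 to 0.21, holds differences of up to 1.16-fold either way, and with the replicate block it ran from −0.25 to 0.24. The responses of the genotypes differed by −0.07 ± 0.18 (limma adjusted p 0.924).

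**Figure D2:**
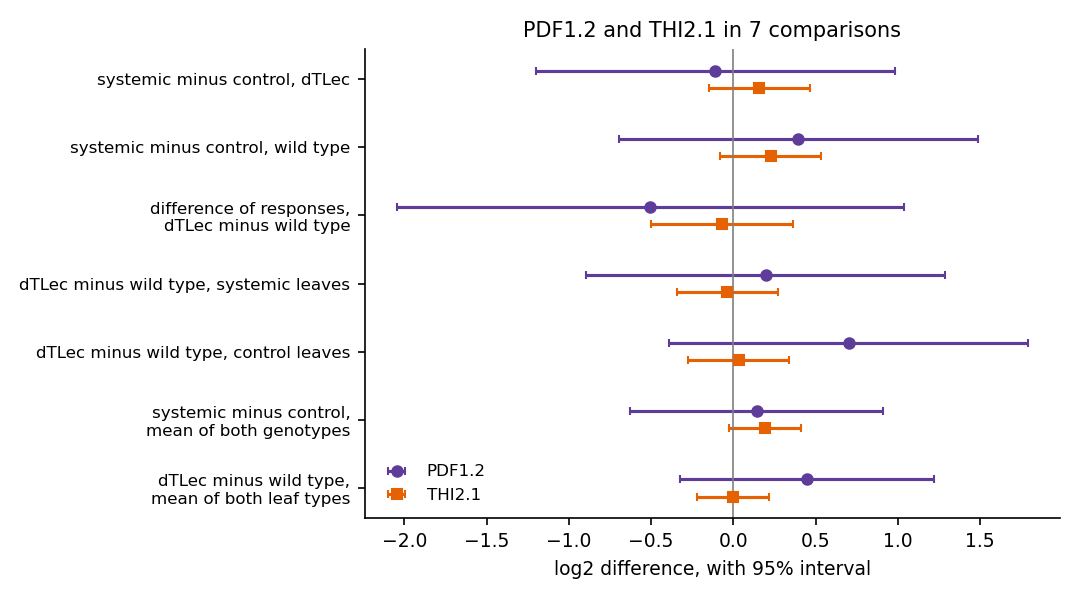
Log2 differences of PDF1.2 (circles) and THI2.1 (squares) in the 7 comparisons, with bars for the 95% interval from limma without the replicate block. Every interval includes 0. The PDF1.2 intervals are wider, as in the difference of responses, from −2.05 to 1.04 against −0.50 to 0.36 for THI2.1.

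PDF1.2 and THI2.1 differed in how far their arrays scattered. THI2.1 lay lower, with a mean level of 4.97 over the arrays against 5.68 for PDF1.2. Whether differences are compressed at that level was not tested. The SD of the PDF1.2 arrays around their group means was 0.61, and 99.7% of probe sets had a smaller one. That of THI2.1 was 0.15, with a smaller one at 75.4% of probe sets. Over the 8 arrays their levels correlated with r = 0.66 (Spearman's rho 0.43), and r was −0.11 without the 2 arrays farthest from the PDF1.2 median. The relation thus rested on those 2 arrays.

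The gene whose pattern was most like that of PDF1.2 was its near relative PDF1.2b (AT2G26020), another defensin gene. Among 3145 single-gene probe sets with an SD of at least 0.2 over the arrays, it had the highest correlation of log2 levels with PDF1.2 (r = 0.97 over 8 arrays, rho 0.95, and r = 0.98 without the 2 arrays farthest from the PDF1.2 median). PDF1.2b had 5.83 and 6.74 in dTLec systemic leaves and 6.61 and 6.53 in dTLec control leaves. In the wild type it had 6.81 and 5.82 in systemic leaves, against 5.86 and 6.03 in control leaves. The same 4 arrays were low for both genes, namely dTLec systemic replicate 1, wild-type systemic replicate 2 and both wild-type control arrays. The split between replicates was thus seen by a separate probe set. The ending of the PDF1.2b probe set's name (_x_at) marks probes that can bind other transcripts as well, so that it may also take up PDF1.2 transcript, which was not tested. PDF1.2c, the next gene after PDF1.2 on its chromosome in the TAIR10.1 gene table, had no probe set of its own by name.

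**Figure D3:**
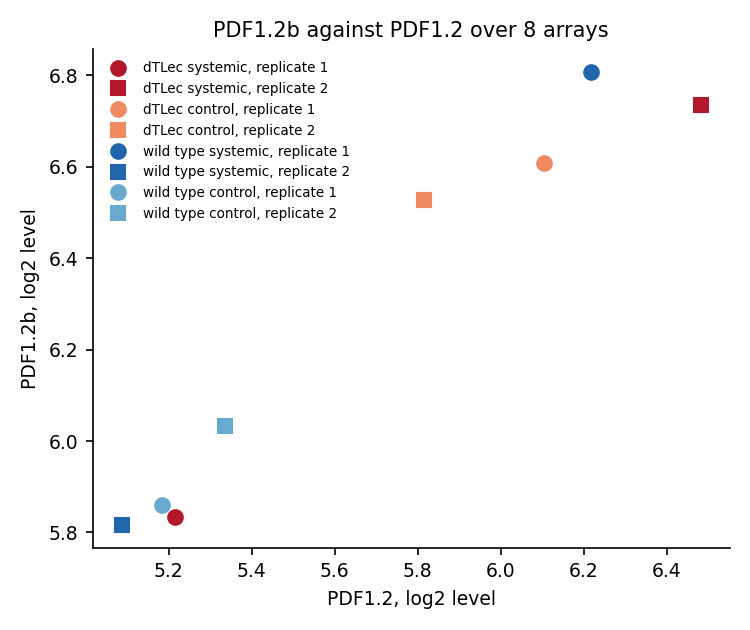
Log2 level of PDF1.2b (vertical axis) against that of PDF1.2 (horizontal axis) on the 8 arrays, coloured by group, with circles for replicate 1 and squares for replicate 2. The arrays form a low set of 4, with PDF1.2 between 5.09 and 5.33, and a high set of 4, between 5.82 and 6.48, and each systemic group has 1 array in either set.

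PDF1.2b passed in no comparison, like PDF1.2. Its systemic minus control difference was −0.28 in dTLec and 0.37 in the wild type (limma adjusted p 0.749 and 0.624). In control leaves dTLec was 0.62 above the wild type, with an adjusted p of 0.651, and 0.605 with the 4 control arrays alone.

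After PDF1.2b the next most similar to PDF1.2 were AT1G02470 (r = 0.88), AT3G24760 (0.83), AT5G19810 (0.81) and AT5G51030 (0.79, and 0.39 without the 2 farthest arrays). For THI2.1 the most similar were AT1G34420 (r = 0.94), WRKY47, a WRKY transcription factor gene (0.93), GRX480, a glutaredoxin gene that salicylate induces (0.93), AT3G14890 (0.93) and AT2G42360 (0.92). Without the 2 arrays farthest from the THI2.1 median these 5 values lay between 0.68 and 0.86. Of the 3146 probe sets compared with THI2.1, 114 had r over 0.8, so these 5 stand out little, against 4 of 3145 for PDF1.2. The 8 arrays share 4 groups and the upstream normalization, and these values are descriptions.

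The defensin list held 15 genes, of which 12 had a probe set of their own by name. In systemic against control leaves 1 of the 12 rose in dTLec and 1 in the wild type, and none fell, beside 0.668% of all probe sets called in dTLec and 11.9% in the wild type. This was LCR69 (AT2G02100, also PDF2.2), a defensin gene of another subgroup. It had 9.88 and 9.93 in dTLec systemic leaves, against 8.64 and 8.84 in dTLec control leaves. In wild-type leaves it had 9.50 and 9.73 in systemic and 8.46 and 7.98 in control leaves. All 4 systemic arrays were thus above all 4 control arrays.

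LCR69 rose 2.24-fold in dTLec (1.16 ± 0.16, limma adjusted p 0.0402) and 2.62-fold in the wild type (1.39 ± 0.16, adjusted p 0.00343; SE, n = 2 arrays per group). The wild-type call held with each array left out in turn. The dTLec call was lost with the replicate number as a block (adjusted p 0.0755) and without any 1 of the 4 dTLec or 2 wild-type systemic arrays (0.0714 to 0.22). The median systemic minus control difference of the 12 defensin genes was 0.05 in dTLec and 0.04 in the wild type, beside −0.01 and −0.02 over all probe sets. PDF1.4 had 0.64 ± 0.28 in dTLec and 0.43 ± 0.28 in the wild type, which did not pass (limma adjusted p 0.322 and 0.427). Of the 12 probe sets 7 were among the dimmest 25% on these arrays, where differences are compressed. These were LCR59, LCR66, LCR67, LCR72, LCR80, PDF2.1 and PDF2.5. Between the genotypes no defensin gene passed in either leaf type. The shares of all probe sets called there were 5.53% in systemic leaves and 0% in control leaves.

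The thionin list held 6 genes, of which 4 were measured by name. THI2.2 (AT5G36910), the closest named relative of THI2.1 on the list, had 8.39 and 8.25 in dTLec systemic leaves, against 9.31 and 8.94 in wild-type systemic leaves. In control leaves it had 8.90 and 8.98 in dTLec and 8.61 and 9.05 in the wild type. The dTLec systemic arrays were the lowest 2 of the 8.

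Between the genotypes in systemic leaves 5.53% of all probe sets were called (0.936% with the replicate number as a block), and the THI2.1 difference was −0.04. There THI2.2 was 1.75-fold lower in dTLec (−0.80 ± 0.17, SE with n = 2 arrays per group, limma adjusted p 0.0454). The call was lost with the replicate number as a block (adjusted p 0.0941) and without any 1 of the 6 arrays other than wild-type controls (0.0711 to 0.168). Its systemic minus control difference was −0.62 ± 0.17 in dTLec and 0.30 ± 0.17 in the wild type, neither past the threshold (limma adjusted p 0.153 and 0.354), and the difference of these responses did not pass either (adjusted p 0.268). The remaining list members, AT1G66100 and AT2G15010, have no name in the gene table used, and neither passed in any comparison. The 4 thionin list members had a median systemic minus control difference of −0.04 in dTLec and 0.18 in the wild type.

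**Figure D4:**
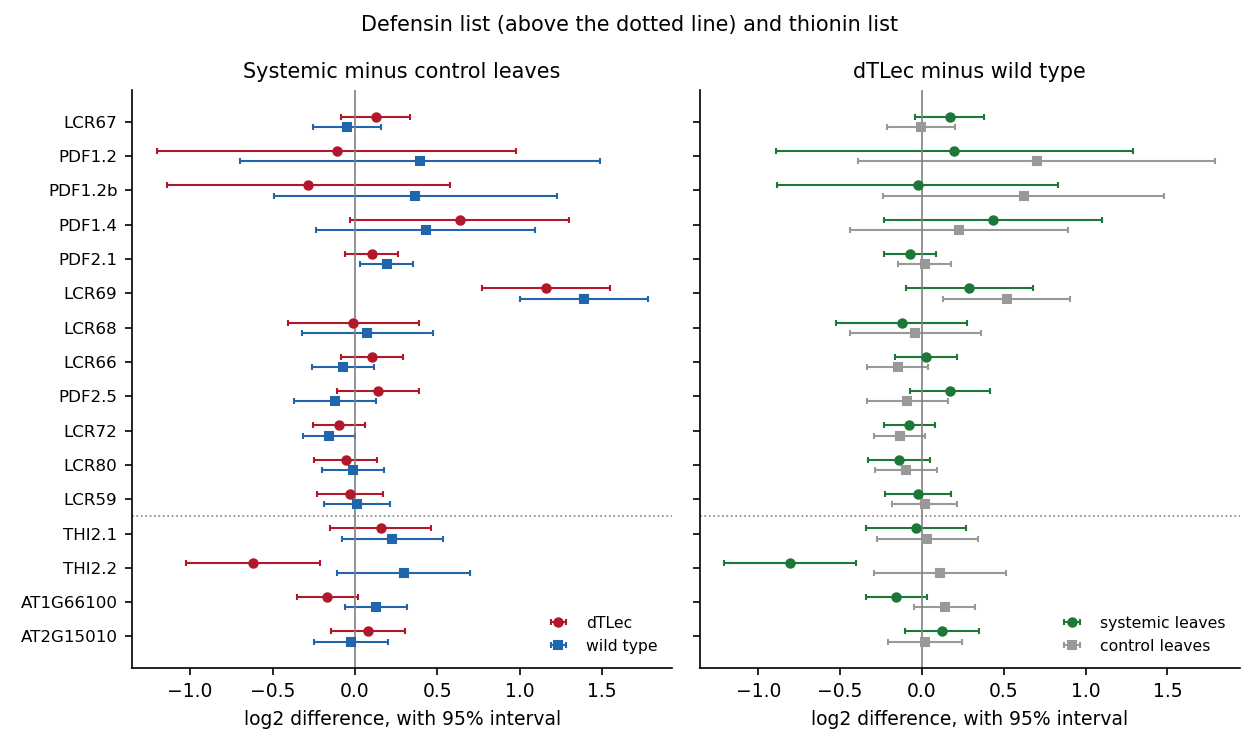
Log2 differences of the 12 defensin and 4 thionin list members measured by name, with bars for the 95% interval from limma without the replicate block. The left panel gives systemic minus control leaves in dTLec (circles) and the wild type (squares), and the right panel dTLec minus wild type in systemic leaves (circles) and control leaves (squares). LCR69 stands at 1.16 and 1.39 on the left, and THI2.2 at −0.80 in systemic leaves on the right.

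The other genes of the jasmonate pathway place these values beside those of genes that moved in the same leaves. Of the 10 listed genes of jasmonate turnover 4 were measured by name, JOX1 to JOX4, which encode enzymes that oxidise jasmonate. All 4 rose in the wild type, by 4.76 for JOX4 (AT2G38240), 4.15 for JOX3, 3.44 for JOX2 and 0.55 for JOX1. In this comparison 11.9% of all probe sets were called, and 7.02% with the replicate block. The JOX1 call was lost with the replicate block (limma adjusted p 0.0628) and when either wild-type systemic array (0.15 for replicate 1, 0.0587 for replicate 2) or replicate 2 of the wild-type controls (0.109) was left out. JOX4 had an interval from 3.48 to 6.05 in the wild type, above the whole intervals of PDF1.2 (−0.70 to 1.48) and THI2.1 (−0.08 to 0.53). In dTLec none of the 4 passed, in a comparison where 0.668% of all probe sets did. There JOX4 had 3.30 (limma adjusted p 0.0574), JOX2 2.52 (0.0553), JOX3 1.77 (0.108) and JOX1 0.08 (0.777). The difference of responses (dTLec minus wild type) passed for none of them (limma adjusted p 0.231 to 0.596), where 0.0044% of all probe sets did. It was −2.38 for JOX3 (interval −3.72 to −1.04), −1.46 for JOX4, −0.93 for JOX2 and −0.47 for JOX1. With so few calls on the whole array, this test neither shows nor excludes a smaller JOX response in dTLec.

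Of 15 jasmonate synthesis and methylation genes, JMT and OPCL1 were measured by name. Both rose in the wild type, by 2.86 and 0.88, beside 11.9% of all probe sets called there. The OPCL1 call was lost without wild-type systemic replicate 2 (limma adjusted p 0.0887). JMT, which methylates jasmonate, also passed in dTLec, at 1.71 (limma adjusted p 0.044), and this call was lost with the replicate block (0.0755) and without any 1 of the 4 dTLec or 2 wild-type systemic arrays (0.0632 to 0.28). In systemic leaves JOX3 (−2.55, adjusted p 0.0224), JMT (−1.98, 0.0146) and OPCL1 (−1.01, 0.0231, limma) were lower in dTLec than in the wild type. In that comparison 5.53% of all probe sets were called, and 0.936% with the block. JOX1, JOX2 and JOX4 did not pass there (limma adjusted p 0.154, 0.0678 and 0.123). The JOX3 and JMT calls were lost without replicate 1 of the dTLec systemic arrays (0.0907 and 0.0825) or either wild-type systemic array (0.0501 to 0.15), and the OPCL1 call with the block (0.0538) or without any 1 of these 3 arrays or dTLec systemic replicate 2 (0.054 to 0.143). Of 24 genes of the MYC branch, which holds the JAZ repressors and their targets, MYC3, MYC4 and ORA47 were measured by name. Their systemic minus control differences lay between −0.29 and −0.05 in dTLec and between −0.21 and −0.03 in the wild type, and none passed. The ethylene branch, which acts on PDF1.2 most directly, was represented by 1 of 18 genes, the ethylene transcription factor gene EIN3, with differences of 0.21 in dTLec and 0.06 in the wild type that did not pass. Of 10 salicylate genes GRX480 (0.68 in dTLec, 0.42 in the wild type) and WRKY53 (0.30 and −0.72) were measured by name, and neither passed. The limma adjusted p was 0.225 and 0.341 for GRX480, and 0.485 and 0.0538 for WRKY53. In these comparisons 0.668% of all probe sets were called in dTLec and 11.9% in the wild type. ERF1 and ORA59 were not measured by name, so the direct activators of PDF1.2 are not described here.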

How the data were processed

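Leaf RNA, 10 µg of total RNA per array, was put on Affymetrix ATH1 arrays by the submitters, per the labels' protocols. The deposited values are log2 expression levels of probe sets, which the authors had normalized between arrays. RMA and Partek are named in the submitters' processing notes, without versions, settings or roles. The log2 scale was inferred from the range of the values. At 100% of probe sets the replicate 1 and replicate 2 arrays had means over the 4 groups within 0.001, so the replicate difference had been removed before deposit. The main model, without that term, therefore counts 1 residual degree of freedom too many, and the closing section gives its counts of calls beside those with the term.

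Leaving out 64 array controls reduced the 22810 probe sets to 22746. Annotation gave 13513 of these 1 gene, 503 several and 8730 none, and only the first are named, with symbols updated through the TAIR10.1 gene table, in which 13436 were found. A model with 1 mean per group over all 8 arrays was fitted with limma 3.58.1 (lmFit, eBayes) in R 4.3.3. Tests were two-sided, adjusted by Benjamini-Hochberg over all 22746 probe sets, with a threshold of 0.05. Samples were grouped by title.

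Alternatives were a replicate block, median centring, cyclic loess, leaving out the dimmest 25% of probe sets, a variance trend, each array left out in turn and, added after the data were seen, each comparison on its own 4 arrays. The block is not given by the labels. Deviations of same-numbered arrays correlated between −0.58 and −0.13, which removing the replicate means favours. Named were PDF1.2, THI2.1, measured list members, with values for the defensins and thionins and for other list members that passed a comparison of 2 groups, and the 5 genes most correlated with each. Named genes, lists and tests were chosen with earlier results of these data known. No sequences are given.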

Additional observations from a re-analysis of the deposited data

How the results depend on the processing

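Neither PDF1.2 nor THI2.1 passed the threshold in the 7 comparisons under 13 alternative settings, nor in the 4 comparisons of 2 groups on their own 4 arrays, and the smallest adjusted p among these 190 values was 0.0555 (limma). With the replicate block no PDF1.2 or THI2.1 call changed, for example PDF1.2 in control leaves stayed at 0.70 with an adjusted p of 0.997. With any array left out, the PDF1.2 difference ranged from −0.75 to 0.52 for the dTLec response, −0.17 to 0.96 for the wild-type response, −1.14 to 0.13 for the difference of responses, −0.44 to 0.83 between genotypes in systemic leaves, 0.56 to 0.85 in control leaves, −0.18 to 0.46 for the mean systemic effect and 0.13 to 0.77 for the mean genotype effect. For THI2.1 the ranges in the same order were −0.028 to 0.34, 0.16 to 0.29, −0.25 to 0.11, −0.22 to 0.15, −0.026 to 0.092, 0.10 to 0.28 and −0.094 to 0.090. The THI2.1 mean genotype effect was 0.0023 with each array centred on its median. PDF1.2b ranged from −0.73 to 0.17 for the dTLec response, −0.13 to 0.86 for the wild-type response, −0.52 to 0.47 between genotypes in systemic leaves and −0.21 to 0.29 for the mean systemic effect.

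Counts of called probe sets moved more. With the replicate block it was 16 in place of 152 for the dTLec response, 1596 in place of 2716 for the wild-type response, 0 in place of 1 for the difference of responses (1481 at an unadjusted p under 0.05), 213 in place of 1257 between genotypes in systemic leaves, 1863 in place of 3209 for the mean systemic effect and 103 in place of 885 for the mean genotype effect. The count for the difference of responses was 8 after median centring, 4 without the dimmest 25% of probe sets and 6 with a variance trend. That for the dTLec response was 324 on its own 4 arrays. With any array left out these counts ranged from 0 to 390, 806 to 2582, 0 to 5, 3 to 1567, 1576 to 3581 and 4 to 779 in the order above, and from 0 to 2 between genotypes in control leaves. The cause of these shifts was not tested. All values rest on 2 arrays per group, and 7 of the 12 defensin probe sets are among the dimmest 25%.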
